A study of Mus musculus with 8 samples.

Results

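The serum amyloid A genes of the mouse, Saa1, Saa2, Saa3 and Saa4, were followed in forepaw skin after an intradermal injection of PACAP (pituitary adenylate cyclase-activating polypeptide). The members were selected from the array by gene name, and they were chosen with their PACAP-over-vehicle ratios in these data known, so those ratios are given as a description with no test. They are 4 of the 29608 gene names on the array, and each was read by 1 probe printed on 1 spot. WT mice (C57BL/6) and PAC1R KO mice (Adcyap1r1 -/-, lacking the PACAP receptor PAC1R in the whole animal) were male and 9 to 10 weeks old. The mice were anaesthetised, and 5 µL of saline with 0.1% BSA was injected into the footpad, either alone (vehicle) or with 1e-07 mol/L PACAP. Skin was taken 30 or 60 min later. The sources used here do not say which mice gave which sample, or if their RNA was pooled.

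The 8 RNA samples were hybridised as 4 PACAP and vehicle pairs, a WT pair and a KO pair for each time. Each pair was read on 2 Agilent arrays with the Cy5 (red) and Cy3 (green) dyes swapped, which count as 1 replicate. The spread between the arrays of a pair is therefore technical, and spread between animals cannot be had. The slide with the WT arrays held no KO array, so that genotype and slide cannot be told apart. Well above background were between 78.6% and 94.5% of spots per array in red and between 54.0% and 65.3% in green. The probe of the deleted gene, Adcyap1r1, was well above background in all 8 samples, and its log2 level after vehicle read 8.29 (WT) against 7.98 (KO) in the 30 min pairs and 8.67 (WT) against 8.56 (KO) in the 60 min pairs. KO minus WT came to -0.21 (standard error 0.097, Benjamini-Hochberg adjusted p = 0.39 in limma). Whether the probe lies in the deleted part of the gene is not given in the sources used here, so "KO" below stands for the label. For the protein, the authors reported PAC1R immunostaining in the acinus of the WT eccrine gland and did not observe it in the KO gland.

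Serum amyloid A proteins are small apolipoproteins that join high density lipoprotein during the acute phase response, the rapid change in plasma proteins after injury or infection. In the mouse, Saa1 and Saa2 encode the acute phase forms made mainly by the liver and also by epithelia. Saa3 is induced outside the liver, in macrophages, fat and epithelial cells, whereas Saa4 encodes a constitutive form made mostly in the liver. Interleukin 1, interleukin 6 and tumour necrosis factor induce the acute phase genes through the transcription factors NF-kappa-B, C/EBP and STAT3.

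All 4 probes lay on chromosome 7 in mm9, the build of the files. The Saa3 probe (NM_011315) covered chr7:53970389-53970448 and the Saa4 probe (NM_011316) chr7:53983662-53983721. The Saa1 probe (NM_009117) covered chr7:53996070-53996129 and the Saa2 probe (ENSMUST00000211766.1) chr7:54009622-54009681. The exon that each probe reads was not analysed here, since no annotation of that build was used. The probes with the highest PACAP-over-vehicle ratios among the members in KO, those of Saa3 and Saa1, are shown 5′ to 3′ as the files give them, so that what was hybridised can be seen.
Saa3 probe: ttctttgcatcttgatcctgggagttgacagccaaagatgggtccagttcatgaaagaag
Saa1 probe: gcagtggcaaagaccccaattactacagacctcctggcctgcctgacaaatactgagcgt
The longest run of bases shared between these probes was 6, and between any of the 4 probes it was 6 or less. Saa1 and Saa2 are near-identical copies, and the RefSeq gene table lists each symbol as an older name of the other gene. Whether either probe also hybridised to the transcript of the other was not tested.

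The RefSeq promoter windows of the 4 genes (GRCm38.p6, 250 bases before the start and 50 after it) were searched on both strands for 4 motifs. These were GGNNTTTCC (NF-kappa-B), TTGCNNAA (C/EBP), TTCNNNGAA (STAT) and TATAAA (the core promoter box), where N is any base, and no matches overlapped each other. The 250 bases before each start are shown along the gene, so that the members up-regulated together in KO can be set beside Saa4, whose ratio could not be measured, and capitals mark the motif matches.
Saa3, chr7:46715677-46715926, minus strand: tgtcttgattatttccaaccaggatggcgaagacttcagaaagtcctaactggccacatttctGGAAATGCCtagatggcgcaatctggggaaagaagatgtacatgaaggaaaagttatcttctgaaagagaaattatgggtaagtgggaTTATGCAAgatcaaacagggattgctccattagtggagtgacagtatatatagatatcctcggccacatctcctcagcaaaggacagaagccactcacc
Saa1, chr7:46742981-46743230, minus strand: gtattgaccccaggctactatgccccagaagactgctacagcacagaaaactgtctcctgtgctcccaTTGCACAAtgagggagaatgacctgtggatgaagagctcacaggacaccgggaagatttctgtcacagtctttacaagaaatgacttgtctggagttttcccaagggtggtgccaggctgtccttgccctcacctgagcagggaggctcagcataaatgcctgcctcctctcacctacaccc
Saa2, chr7:46751583-46751832, plus strand: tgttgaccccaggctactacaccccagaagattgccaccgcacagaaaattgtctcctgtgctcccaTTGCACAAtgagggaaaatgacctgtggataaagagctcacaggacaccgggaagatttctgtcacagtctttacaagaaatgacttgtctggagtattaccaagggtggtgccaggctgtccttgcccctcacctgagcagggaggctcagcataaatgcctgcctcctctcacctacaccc
Saa4, chr7:46732604-46732853, minus strand: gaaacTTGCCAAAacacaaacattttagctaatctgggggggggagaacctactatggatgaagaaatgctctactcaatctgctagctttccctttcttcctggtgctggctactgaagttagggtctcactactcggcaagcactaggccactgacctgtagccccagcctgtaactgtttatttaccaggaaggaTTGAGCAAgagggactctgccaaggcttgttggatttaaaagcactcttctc
The Saa1 and Saa2 sequences were identical at 238 of 251 aligned positions (94.8%). Those of Saa3 and Saa4 shared 44.5% with each other, and between 42.6% and 48.9% with Saa1 or Saa2. A C/EBP match lay in all 4 windows, 182 bases before the start in Saa1, 183 in Saa2, 99 in Saa3, and both 245 and 52 in Saa4. The NF-kappa-B letters were found in Saa3, 187 bases before the start, and not in the windows of the other members. No STAT or TATAAA letters were found in these windows, nor any match in the 50 bases after a start. Of all 32851 promoters in the table, 10.8% held the C/EBP letters, 5.82% the NF-kappa-B letters, 8.3% the STAT letters and 13.6% the TATAAA letters. A match of letters is a description and was not tested as a binding site.

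**Figure D1:**
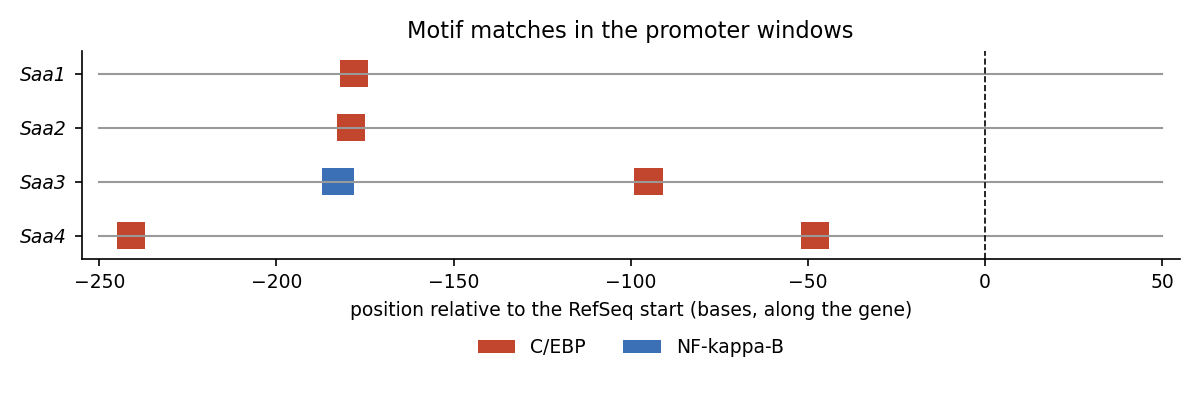
Position of each motif match in the promoter windows of the 4 genes, in bases relative to the RefSeq start (dashed line), with the colour naming the motif. The C/EBP letters occur in every window, once in Saa1, Saa2 and Saa3 and at 2 positions in Saa4, and the NF-kappa-B letters only in that of Saa3.

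Saa1, Saa2 and Saa3 were higher after PACAP than after vehicle in the KO pairs at both time points, whereas their WT ratios lay between 0.789-fold and 2.12-fold. Saa4 was near background in every sample. Up- or down-regulated here means a mean ratio of at least 2.0-fold or at most 0.5-fold, where both arrays pointed the same way and each had a p under 0.01 from the Feature Extraction software. At 30 min, 0 of the 4 members were up-regulated in WT, where 0.254% of all probes were, and 3 of 4 in KO, where 0.601% of all probes were. At 60 min, 1 of the 4 members was up-regulated in WT (0.583% of all probes) and 3 of 4 in KO (0.142% of all probes). None of the 4 was down-regulated in any comparison, against 0.0964% and 0.107% of all probes in WT and KO at 30 min and 0.109% and 0.15% at 60 min. Because these contrasts chose the members, nothing is read from the counts. The median log2 ratio of all probes was 0 in each comparison. The difference in ratio between the genotypes was not tested, as the members were chosen with these ratios known.

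Saa3 had the highest ratio in both KO pairs among the members whose ratio could be measured. For KO at 30 min it was 12.6-fold on the array with PACAP in Cy5 and 11.5-fold on the dye swap, with a mean of 12.1-fold. That placed its probe in position 5 from the top of 39426 probes. In the 60 min KO pair the arrays gave 7.15-fold and 6.69-fold (mean 6.92-fold), in position 11. In WT the arrays gave 1.77-fold and 1.38-fold at 30 min (mean 1.56-fold), and 1.89-fold and 1.98-fold at 60 min (mean 1.94-fold). The ratio of Saa3 was thus above 1-fold on all 8 arrays, and only the KO pairs were past 2.0-fold.

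Saa1, an acute phase form, lay on either side of 1-fold in WT at the 2 times. At 30 min in WT its ratio was 0.860-fold and 0.857-fold on the 2 arrays (mean 0.858-fold), and at 60 min it was 1.86-fold and 1.71-fold (mean 1.78-fold). In KO it was 5.42-fold and 5.21-fold at 30 min (mean 5.32-fold) and 3.39-fold and 3.23-fold at 60 min (mean 3.31-fold). Both KO values were therefore above the WT value at the same time.

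Saa2 was the member that passed the counting thresholds in WT. In WT it was 0.747-fold and 0.832-fold at 30 min (mean 0.789-fold), and 2.20-fold and 2.05-fold at 60 min (mean 2.12-fold). In KO it was 3.68-fold and 3.91-fold at 30 min (mean 3.79-fold) and 2.12-fold and 2.18-fold at 60 min (mean 2.15-fold). The WT and KO means of Saa2 were close to each other at 60 min, with the WT arrays on both sides of the KO arrays. With ratios recomputed by normexp and loess, Saa2 was 2.23-fold in the 30 min KO pair, still past the threshold, and 1.59-fold for WT and 1.80-fold for KO at 60 min, under the threshold in both.

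Saa4, the constitutive form, gave no usable ratio. Feature Extraction set its ratio to exactly 1 on 6 of the 8 arrays, which it does where a spot cannot be measured well. The other arrays, both with PACAP in Cy3, gave 0.870-fold in the 60 min WT pair and 0.662-fold in the 60 min KO pair. Its spot was well above background in the red channel of 5 arrays and in the green channel of none. Neither sample of WT at 30 min was above background on any array, nor was the vehicle sample of KO at 30 min. A bound from the lowest measurable signal was below 1-fold in the 30 min KO pair, so no fold is given.

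**Figure D2:**
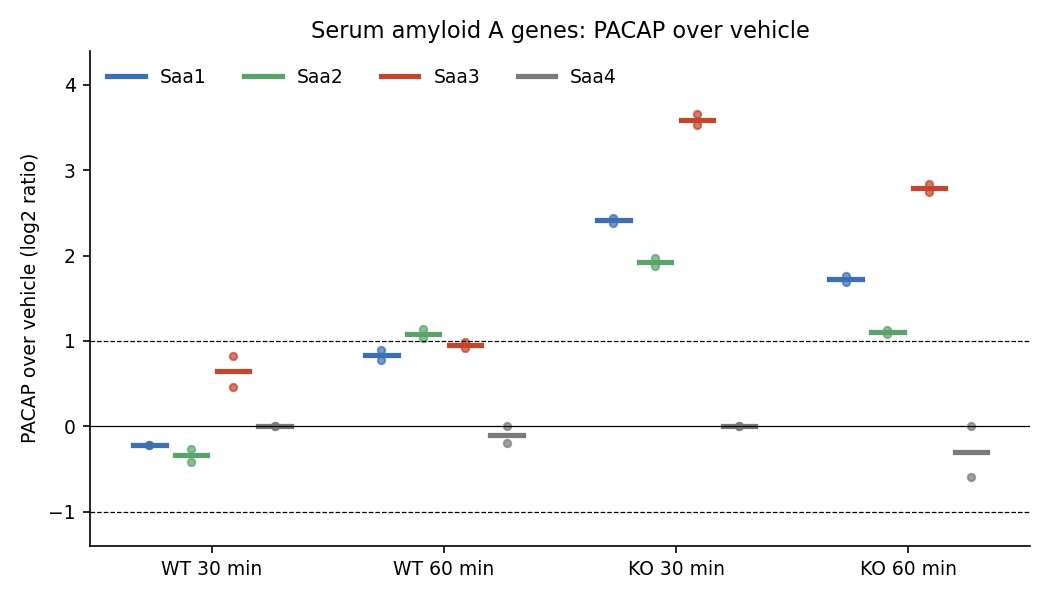
PACAP-over-vehicle log2 ratio of each member in each comparison. Points are the 2 dye-swapped arrays, bars their mean, and the dashed lines mark 2.0-fold and 0.5-fold. Saa1, Saa2 and Saa3 lie above the upper line in both KO pairs, Saa2 alone does so in the 60 min WT pair, and the Saa4 means lie between 0.814-fold and 1-fold.

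The level of a gene in a sample is its mean log2 intensity over both dyes, once backgrounds were corrected by normexp and dyes and arrays were normalized by loess and Aquantile. Levels are compared within a gene only. In bulk skin, more cells of a type and more RNA per cell cannot be told apart.

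For Saa3 the log2 level in WT was 6.64 after vehicle and 6.91 after PACAP at 30 min, and 7.25 after vehicle and 7.85 after PACAP at 60 min. In KO it was 8.23 after vehicle and 11.55 after PACAP at 30 min, and 9.02 after vehicle and 11.67 after PACAP at 60 min. All 4 KO samples were higher than all 4 WT samples, the vehicle-treated ones included. The highest single WT array read 7.87 and the lowest KO array 8.16. In this order of 8 samples, only the PACAP samples of KO at 30 and 60 min had overlapping arrays. Both were nearly level, at a difference of 0.12, while the KO vehicle sample was 0.78 higher at 60 than at 30 min. The vehicle sample of WT at 30 min was well above background on 1 of its 2 arrays.

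For Saa1 the log2 level in WT was 8.12 after vehicle and 7.98 after PACAP at 30 min, and 8.40 after vehicle and 9.16 after PACAP at 60 min. In KO it was 8.43 after vehicle and 10.62 after PACAP at 30 min, and 9.16 after vehicle and 10.80 after PACAP at 60 min. The KO samples treated with PACAP were the highest pair, and the genotypes otherwise overlapped. The KO vehicle sample at 60 min could not be separated from the WT PACAP sample at 60 min (difference 0.004), nor the WT vehicle sample at 60 min from the KO vehicle sample at 30 min (difference 0.028). As for Saa3, the PACAP samples of KO differed little between 30 and 60 min (0.18), less than the vehicle samples of KO did (0.73).

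For Saa2 the log2 level in WT was 7.00 after vehicle and 6.85 after PACAP at 30 min, and 7.18 after vehicle and 7.86 after PACAP at 60 min. In KO it was 6.83 after vehicle and 7.98 after PACAP at 30 min, and 7.68 after vehicle and 8.53 after PACAP at 60 min. Its range over the 8 samples was 1.70, and those of Saa1 and Saa3 were 2.82 and 5.03. The offset used compresses differences of dim probes, so the ranges are not ranked between genes. The arrays of the KO vehicle sample at 60 min, the WT PACAP sample at 60 min and the KO PACAP sample at 30 min overlapped in turn, and so did those of the lowest pair, KO vehicle and WT PACAP at 30 min.

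For Saa4 the mean log2 level lay between 5.89 and 5.97 in all 8 samples, a range of 0.088. Each neighbouring pair in its order overlapped between arrays. This is the level of spots near background, so that no difference in Saa4 could be measured in any direction.

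**Figure D3:**
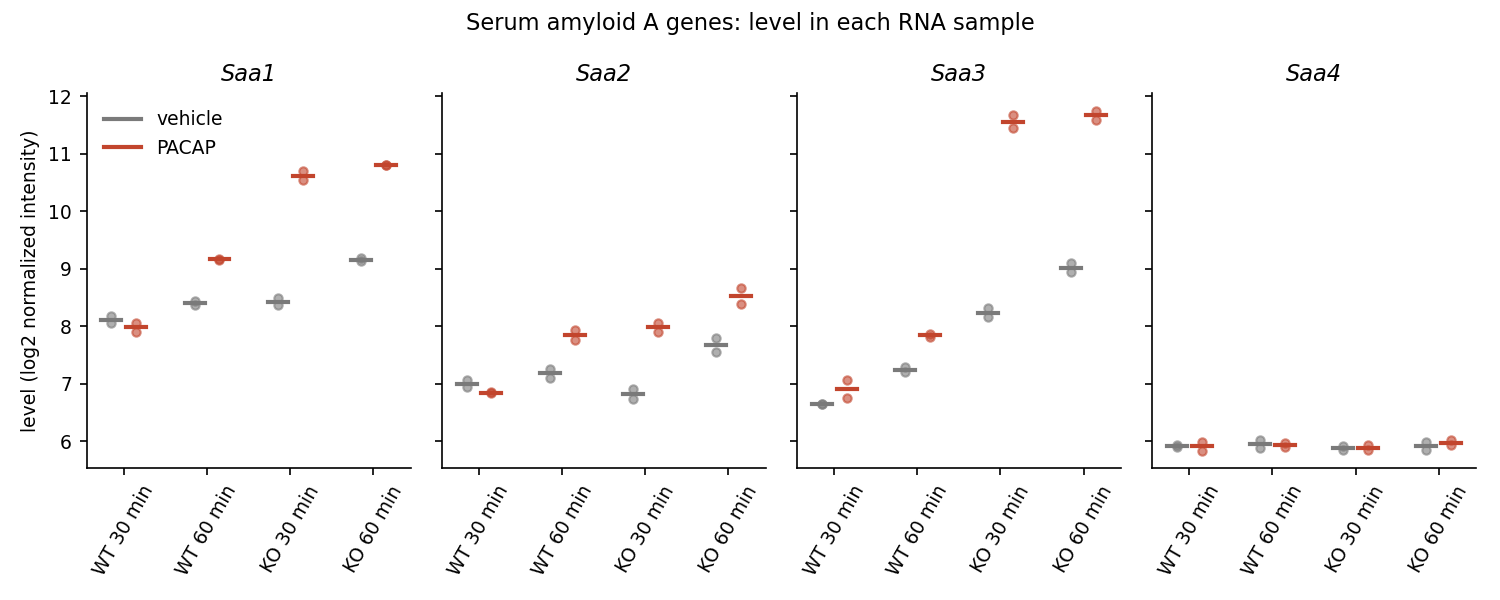
Log2 level of each member in each RNA sample, grey for vehicle and red for PACAP. Points are the 2 arrays of a sample and bars their mean. Saa3 separates all KO from all WT samples, Saa1 and Saa2 overlap between genotypes, and the Saa4 sample means stay between 5.89 and 5.97.

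The vehicle-treated samples show the members without added PACAP. The contrast of KO with WT vehicle samples was not the one that chose the members, although the same samples are the denominators of the ratios. It was fitted with limma over 24902 probes well above background on both arrays of at least 1 vehicle sample, with time as a covariate, on 4 samples. The Saa3 level in KO was 3.02-fold that in WT among the 30 min vehicle samples and 3.40-fold among the 60 min ones. Its fitted KO minus WT log2 difference was 1.68 (standard error 0.095, adjusted p = 0.32), which did not pass the threshold of 0.05. From Feature Extraction's processed signals, without the offset, the difference was 2.67 (adjusted p = 0.12). Saa1 differed by 0.54 (standard error 0.14, adjusted p = 0.32) and Saa2 by 0.16 (standard error 0.18, adjusted p = 0.69). Without the KO vehicle sample at 60 min, in a fit without the time covariate, Saa2 turned to -0.27 and Saa1 was 0.17. Saa4 was too dim to enter this fit. In this contrast 0 of the 24902 probes (0%) passed, and 3554 had an unadjusted p under 0.05. Some marker lists also departed from 0 between these samples, with 0 markers passing. KO minus WT was above 0 for 11 of 12 macrophage markers (median log2 difference 0.22), 10 of 12 keratinocyte markers (0.16), 8 of 10 fibroblast markers (0.26) and 5 of 14 hepatocyte markers (-0.29), against a median of 0.01 over all probes tested. Other lists had medians near that of all probes. These were neutrophil (7 of 13 above 0, median 0.02), adipocyte (7 of 10, 0.03) and eccrine gland markers (3 of 9, -0.02). The hepatocyte difference lay at 60 min. After vehicle, the median log2 level of 19 hepatocyte markers was 6.206 (WT) and 6.245 (KO) at 30 min. At 60 min it was 7.032 (WT) and 6.345 (KO). The part of these markers in the Saa3 difference was not tested.

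Between the times, the vehicle samples read higher at 60 than at 30 min for all of Saa1, Saa2 and Saa3 in both genotypes. The fitted 60 minus 30 min log2 difference was 0.69 for Saa3 (standard error 0.095, adjusted p = 0.12), 0.51 for Saa1 (standard error 0.14, adjusted p = 0.14) and 0.52 for Saa2 (standard error 0.18, adjusted p = 0.19). None of these passed the threshold in limma. Again 0 of 24902 probes (0%) passed, and 6304 had an unadjusted p under 0.05. With single vehicle samples left out, Saa1 ran from 0.13 (without KO at 60 min) to 0.89 (without WT at 60 min) and Saa2 from 0.27 to 0.76 (the same samples). The sign of the Saa3 time difference turned to -0.19 without the KO vehicle sample at 60 min and to -0.10 without the WT vehicle sample at 30 min, in fits without the genotype covariate, where the genotypes are then unequally represented at each time. Liver and skin cell markers differed between the times as well. Above 0 for 60 minus 30 min were 12 of 14 hepatocyte markers (median log2 difference 0.35), 12 of 14 acute phase proteins of liver (0.29), 9 of 13 neutrophil markers (0.23) and 9 of 12 macrophage markers (0.20), but 0 of 12 keratinocyte markers (-0.36), 2 of 10 fibroblast markers (-0.17) and 3 of 9 eccrine gland markers (-0.28), while the median over all probes was close to 0. Most of the liver difference lay in WT. After vehicle, the median log2 level of 19 hepatocyte markers went from 6.206 to 7.032 in WT and from 6.245 to 6.345 in KO. That of 20 acute phase proteins went from 6.421 to 6.947 in WT and from 6.63 to 6.517 in KO. No marker passed the threshold, and the part of the markers in the time differences of Saa1, Saa2 and Saa3 was not tested.

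Among 16 genes for cytokines that induce serum amyloid A and their receptors, 2 were up-regulated at 30 min in WT and 2 in KO, and none at 60 min in either genotype. The median ratio of the 16 was 1.08-fold for WT and 0.989-fold for KO at 30 min, then 1.07-fold (WT) and 1.096-fold (KO) at 60 min. The called genes were Il6 and Il1b in both genotypes. Per comparison, between 0.142% and 0.601% of all probes were up-regulated and between 0.0964% and 0.15% down-regulated, which holds beside the lists below too. Il6, which encodes interleukin 6, was 4.47-fold for WT and 3.80-fold for KO at 30 min, then 1.12-fold (WT) and 1.77-fold (KO) at 60 min. Il1b, which encodes interleukin 1 beta, was 2.10-fold for WT and 4.76-fold for KO at 30 min, then 0.574-fold (WT) and 1.46-fold (KO) at 60 min. With ratios recomputed by normexp and loess, the 30 min values of Il6 were 2.61-fold for WT and 2.64-fold for KO, and those of Il1b 1.75-fold for WT, under the threshold, and 3.67-fold for KO.

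After vehicle alone, Il6 also read higher at the later time. Its log2 level went from 7.01 to 9.22 in WT and from 7.20 to 9.74 in KO between 30 and 60 min, and the fitted 60 minus 30 min difference came to 2.38 (standard error 0.12, adjusted p = 0.12 in limma), short of the threshold. Tnf, which encodes tumour necrosis factor, was 2.10-fold for WT at 30 min without passing the p limit on both arrays, and 1.48-fold for KO. The WT vehicle sample was well above background on 1 of 2 arrays, and by normexp and loess the WT ratio was 1.20-fold. At 60 min its ratios were 0.922-fold for WT and 1.08-fold for KO.

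None of 14 transcription regulators of the acute phase response was called in any comparison. The median ratio of the 14 was 1.17-fold for WT and 0.798-fold for KO at 30 min, with 11 of 14 above 1-fold in WT and 12 of 14 below it in KO. The 60 min medians were 0.964-fold for WT and 1.18-fold for KO, with 5 of 14 above 1-fold in WT and 14 of 14 in KO. Stat3, the transcription factor downstream of interleukin 6, was 1.28-fold for WT and 0.789-fold for KO at 30 min. Its feedback inhibitor Socs3 was 1.28-fold and 1.12-fold. Of the C/EBP genes, Cebpb was 1.29-fold for WT and 0.657-fold for KO at 30 min, and Cebpd 1.16-fold and 0.798-fold. In the 60 min KO pair Stat3 was 1.22-fold, Socs3 1.24-fold, Cebpb 1.12-fold and Cebpd 1.03-fold.

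Of 9 receptor genes whose proteins are reported to bind serum amyloid A, 2 were up-regulated in the 30 min KO pair and 1 in the 60 min KO pair, and none in WT. The median of the 9 was 1.001-fold in the 30 min KO pair and between 1.06-fold and 1.08-fold in the other comparisons. Fpr2, a formyl peptide receptor of neutrophils and macrophages that binds serum amyloid A, was 7.47-fold in the 30 min KO pair and 2.12-fold in the 60 min KO pair. Its WT ratios, 2.69-fold at 30 min and 0.437-fold at 60 min, were not called. Its probe was dim, with the KO vehicle sample at 30 min well above background on 1 of 2 arrays, at log2 levels of 6.20 after vehicle and 7.00 after PACAP. The other gene called in the 30 min KO pair was Fpr1, the related formyl peptide receptor, at 2.53-fold, with log2 levels of 6.34 after vehicle and 6.81 after PACAP. By normexp and loess none of the 9 was called, with Fpr2 at 1.74-fold and 1.34-fold in the 30 and 60 min KO pairs and Fpr1 at 1.38-fold in the 30 min KO pair. Tlr2, which encodes a Toll-like receptor, lay between 1.102-fold and 1.14-fold in all comparisons.

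Of 20 acute phase proteins of liver, 3 were up-regulated in the 30 min KO pair, 3 were down-regulated in the 60 min WT pair, and none was called in the other comparisons. The medians were 1.13-fold in KO at both times, 0.976-fold in the 30 min WT pair and 0.929-fold in the 60 min WT pair. Hp, which encodes the haemoglobin-binding haptoglobin, was 3.55-fold in the 30 min KO pair and 1.51-fold in the 60 min KO pair, and 0.989-fold and 0.931-fold in WT. Fgg, which encodes a fibrinogen chain, was 7.11-fold in the 30 min KO pair from a vehicle sample above background on 1 of 2 arrays, and 0.202-fold in the 60 min WT pair. The third gene up-regulated there was Serpina3m, a serine protease inhibitor gene, at 2.09-fold. The others down-regulated in the 60 min WT pair were Fgb, for another fibrinogen chain, at 0.315-fold, and Hpx, which encodes the haem-binding hemopexin, at 0.333-fold. For Fgg, Fgb and Hpx the PACAP sample of that pair was well above background on 1 of 2 arrays. By normexp and loess these ratios were 0.700-fold, 0.690-fold and 0.687-fold, so that none was called in that pair. In the 30 min KO pair Hp alone stayed past the threshold, at 3.40-fold, with Fgg at 1.60-fold and Serpina3m at 1.75-fold. Outside this list, Lcn2, which encodes the iron-siderophore-binding lipocalin 2, was 3.03-fold in the 30 min KO pair, 1.77-fold in the 60 min KO pair, and 1.04-fold and 1.16-fold in WT at 30 and 60 min. Orm1, which encodes an acid glycoprotein of plasma, was 1.59-fold in the 30 min KO pair and between 0.834-fold and 1.05-fold elsewhere.

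Of 12 measured genes for proteins of high density lipoprotein, which carries serum amyloid A in plasma, 1 was up-regulated, in the 30 min KO pair. This was Apoc2, the cofactor of lipoprotein lipase, at 2.18-fold (1.73-fold by normexp and loess, under the threshold). The medians of the list lay between 0.996-fold and 1.06-fold in the 4 comparisons.

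**Figure D4:**
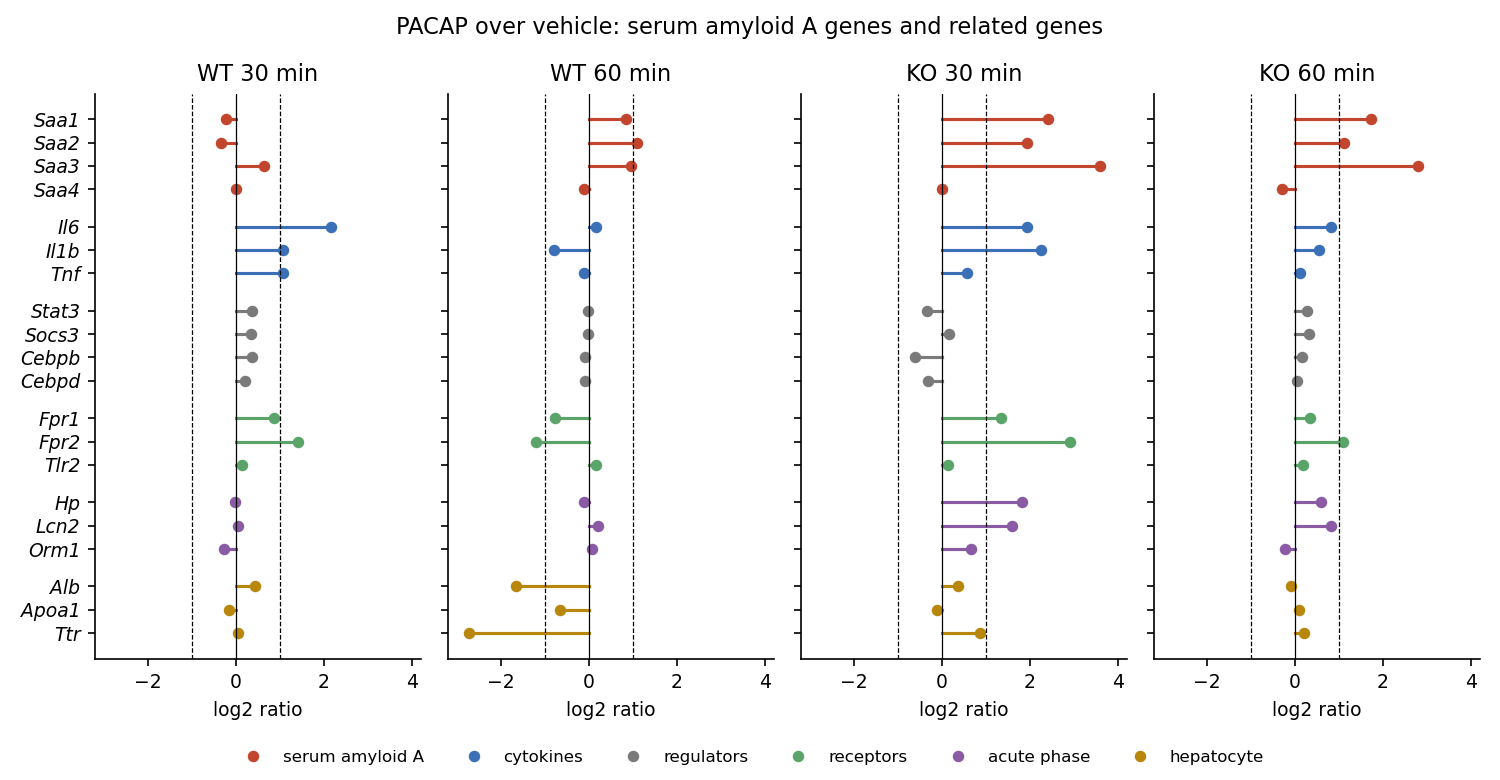
PACAP-over-vehicle log2 ratio (mean of 2 arrays) of the members and of 16 related genes, by comparison (3 cytokine, 4 regulator, 3 receptor, 3 acute phase and 3 hepatocyte genes), with colour for the group and dashed lines at 2.0-fold and 0.5-fold. Of the genes plotted, in the 30 min KO pair Saa1, Saa2, Saa3, Il6, Il1b, Fpr1, Fpr2, Hp and Lcn2 lie past the upper line, and in the 60 min WT pair Alb, Ttr and the uncalled Fpr2 lie past the lower line with Saa2 past the upper.

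Since Saa1, Saa2 and Saa4 are also liver genes, 19 measured hepatocyte markers were set beside them. None was called in the 30 min WT pair or in KO at either time, with medians of 0.904-fold, 1.16-fold and 1.04-fold. In the 60 min WT pair, 7 of 19 were down-regulated after PACAP, against 0.109% of all probes, and the median was 0.636-fold. The ratios of Saa1, Saa2 and Saa3 were above 1-fold in that comparison. Alb, which encodes albumin, was 0.318-fold, Ttr, which encodes transthyretin, was 0.152-fold, and Fabp1, the liver fatty acid binding protein gene, was 0.0592-fold. For Ttr and Fabp1 the PACAP sample was well above background on 1 of 2 arrays, so the size of these falls is uncertain. By normexp and loess 3 of the 19 were down-regulated and the median was 0.811-fold, with Alb at 0.526-fold, Ttr at 0.642-fold and Fabp1 at 0.332-fold. The log2 levels went from 6.86 after vehicle to 6.22 after PACAP for Ttr and from 7.96 to 6.37 for Fabp1. The WT vehicle sample at 60 min stood apart, with 14 of 19 markers well above background on both arrays and a median log2 level of 7.03. In the other 7 samples between 6 and 11 were, with medians between 6.19 and 6.37. The summed log2 level of the list lay between 13.24 and 14.47 over the 8 samples. In the WT vehicle sample at 60 min it was 13.57, so that sample was not high by this sum. With a single WT pair at 60 min, no value of Saa2 without that vehicle sample could be had, and the part of these markers in the WT ratios was not tested. In 1 sample, WT after PACAP at 30 min, Gc, Apoa1 and Apob were not well above background on either array, and in the other 7 every marker was on at least 1 array.

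Markers of other cells of the skin also departed from 1-fold in the 30 min KO pair, where the ratios of Saa1, Saa2 and Saa3 were highest. Of 12 keratinocyte and palm epidermis markers, 12 were below 1-fold there and 2 were down-regulated, Krt10 at 0.365-fold and Krt1 at 0.455-fold, both keratins of differentiated epidermis. The list's median was 0.636-fold in the 30 min KO pair, and between 1.11-fold and 1.16-fold in the other comparisons. Of 10 fibroblast markers, 9 were below 1-fold in the 30 min KO pair (median 0.740-fold) and 10 were above it in the 30 min WT pair (median 1.27-fold). The eccrine gland markers had a median of 0.761-fold in the 30 min KO pair and between 0.871-fold and 1.02-fold in the other comparisons, with none of 10 called. At 60 min in KO, where 3 members were also up-regulated, the keratinocyte and fibroblast medians were 1.16-fold and 1.18-fold.

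Of 16 neutrophil markers, 1 was up-regulated, in the 30 min KO pair. It was Retnlg, a resistin-like gene of neutrophils, at 2.91-fold. The median of the list was 1.19-fold in the 30 min KO pair, 1.05-fold in the 60 min KO pair, 0.986-fold in the 30 min WT pair and 0.935-fold in the 60 min WT pair. No monocyte and macrophage marker of 13 was called, with medians between 1.01-fold and 1.13-fold, and no adipocyte marker of 10, with medians between 0.912-fold and 0.989-fold. The summed log2 level of the neutrophil list lay between 13.07 and 13.36, that of the macrophage list between 15.55 and 15.98, and that of the keratinocyte list between 18.19 and 18.94. The part of these cells in the serum amyloid A ratios was not tested.

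Within 250 kb of the member probes lay 21 other probes under 15 names, and none of the brightest probes per name was called in any comparison. Their ratios ran from 0.802-fold to 1.45-fold in the 30 min KO pair and from 0.838-fold to 1.28-fold in the 60 min KO pair. Saal1 (chr7:53948260-53948319), named for its likeness to the serum amyloid A genes, was 1.45-fold in the 30 min KO pair and 0.838-fold in the 60 min KO pair. On the other side of the cluster Hps5 (chr7:54015863-54015922), a gene of lysosome-related organelle formation, was 0.833-fold and 1.07-fold.

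The genes whose log2 levels were most like those of Saa3 over the 8 RNA samples were sought among 30350 probes that every array measured above background in red, green or both. They were Nppb (Pearson r = 0.977), Fcmr (0.970), Saa1 (0.969), 2610528A11Rik (0.966) and Adora3 (0.964). Nppb, which encodes B-type natriuretic peptide, was 8.95-fold in the 30 min KO pair and 4.41-fold in the 60 min KO pair, and 0.737-fold and 1.31-fold in WT. Adora3, an adenosine receptor gene, had PACAP-over-vehicle ratios between 1.02-fold and 1.36-fold despite its like levels. For Saa1 the 5 most alike were Sprr2g (0.980), D2hgdh (0.979), Acod1 (0.975), Lcn2 (0.973) and Csta3 (0.970). Sprr2g, which encodes a small proline-rich protein of the epidermis, was 7.86-fold in the 30 min and 8.57-fold in the 60 min KO pair, against 0.900-fold and 4.33-fold in WT. Csta3, of the cysteine protease inhibitor family of stefins, was 17.4-fold and 11.2-fold in KO and 1.30-fold and 7.88-fold in WT. Acod1, which encodes the enzyme that makes itaconate in macrophages, was 6.97-fold and 2.48-fold in KO and 0.928-fold and 3.25-fold in WT.

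Saa1 and Saa2 had r = 0.932 with each other, Saa3 and Saa2 0.833, and Saa4 between 0.130 and 0.520 with the other members. Those most like Saa4 were Pdcd1 (0.963), Igfbp4 (0.940), Arc (0.937), Gm10457 (0.936) and Lca5 (0.932), against a Saa4 level near background. These correlations are a description over 8 samples, of which pairs shared arrays and each genotype a slide.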

How the data were processed

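Forepaw skin RNA was measured on 8 two-colour Agilent arrays, and groups were taken from the labels. Feature Extraction of Agilent read the authors' scans (12.0.3.1 in the file headers, 11.0.1.1 in the labels), which subtracted background and normalized the dyes by LOWESS. The deposited log10 ratios are red over green. The deposited p-value of a spot comes from the software's error model and speaks of 1 array, not of animals. The deposited intensity values are mean, background and processed signals per channel. The authors' series matrix holds the log10 ratio of the processed signals and served as an alternative. It equals the ratio of the scanner files' processed signals within 1.7e-09 on the log2 scale, and departs from their log ratio at spots such as that of Saa4, where the software had set it to 0.

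Here, control spots and outlier-flagged spots were dropped (198 to 342 outlier spots per array, no member among them), and each ratio, expressed with PACAP in the numerator, was averaged over spots, then over arrays. Levels came from mean and background intensities by normexp with an offset of 50, loess and Aquantile in limma 3.58.1 (R 4.3.3). The offset compresses differences of dim probes. Vehicle samples were compared by lmFit and eBayes with Benjamini-Hochberg adjustment, which left 1 residual degree of freedom per probe before the spread was pooled over probes. Its p-values measure the spread between samples that may be pooled. Of a gene's probes the brightest stands for it. The genes named are the members, their inducers, regulators, receptors and related acute phase genes, 3 hepatocyte genes, Adcyap1r1, up to 3 called genes with the largest change per list and comparison, neighbours within 250 kb, and the 5 genes most like Saa3, Saa1 and Saa4. The members, gene lists and tests were chosen with earlier results of these data known. Promoter sequences are from RefSeq (GRCm38.p6), where all 4 members matched by symbol, and probe coordinates are mm9 as in the files. 1 gene of the receptor list is not reported here. Proteins were not compared here. Precision is limited by the few arrays. The counting and the limma fit were tested on simulated data, in Python 3.11.15 and R. The change simulated for the limma fit was larger than any vehicle difference of the members. That check therefore does not show if differences of their size would be found.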

Additional observations from a re-analysis of the deposited data

How the results depend on the processing

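The counts of up-regulated members were 0 in WT and 3 in KO at 30 min under all 11 alternatives. Of these, median centring, series matrix ratios, kept outlier spots and a background filter left the 30 min ratios of Saa1, Saa2 and Saa3 unchanged. In WT at 60 min the count of 1 became 0 with normexp and loess ratios, 3 at a 1.5-fold threshold and 0 at 3-fold. In KO at 60 min the count of 3 became 2 with normexp and loess ratios or at 3-fold. With either array of each pair left out, the counts were 0, 3, 1 and 3 as in the full data (WT 30, KO 30, WT 60 and KO 60 min). A mean over all probes of a gene is the same value, since each member has 1 probe. No paired analysis was possible because the replicate numbers mark the dye orientation of the same pair of RNA samples and pair no samples across groups. The PACAP and vehicle samples of an array are a pair, but that contrast chose the members and was not tested.

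In the vehicle contrasts 0 members passed under every alternative, and leaving out single samples gave 0 to 0. Over those fits the KO minus WT log2 difference ran from 1.29 to 2.07 for Saa3, from 0.17 to 0.90 for Saa1 and from -0.27 to 0.58 for Saa2. The 60 minus 30 min difference ran from -0.19 (-0.10 without the WT vehicle sample at 30 min) to 1.58 for Saa3. Across all probes, those fits made 62 KO minus WT calls without the KO sample at 30 min, and for time 214 without the WT sample at 60 min and 9 without the KO sample at 60 min. Feature Extraction's processed signals raised the Saa3 KO minus WT difference to 2.67, and loess alone gave 1.84 while moving the median of all probes to 0.17. Of the single-gene ratios, levels and differences under the alternatives, 161 kept within the array spread or on their side of the threshold, 58 moved by more than that spread and the 3 named above reversed. Signal over background limited Saa4, and a single pair of RNA samples limited each ratio.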
